A study of Rattus norvegicus with 97 samples.

Results

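The genes described here are the enzymes that make and break down cyclic AMP and cyclic GMP: the adenylyl cyclases (Adcy), the guanylyl cyclases (Gucy) and the phosphodiesterases (Pde). They were chosen by symbol alone, from symbols that begin with Adcy and a digit, with Gucy, or with Pde and a digit, and 41 of the 14217 named genes on the array qualified. The 41 comprise 7 membrane adenylyl cyclases, 1 soluble adenylyl cyclase (Adcy10), 4 subunits of soluble guanylyl cyclase, 5 receptor guanylyl cyclases, 8 cAMP-specific, 7 dual-specificity and 4 cGMP-specific phosphodiesterases, and 5 genes of that name whose products do not hydrolyse cyclic nucleotides by themselves. Together they have 55 probe sets, and each of the 13 genes with several probe sets is represented by the brightest. All 41 were tested, with no filter on dim signals, and the signals of 22 lay above the median probe set (7.92 on the log2 scale).

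RNA was measured in the shell of the nucleus accumbens, the reward-related region at the base of the striatum, with 1 Affymetrix 3' expression array per rat. The rats came from 5 pairs of lines, each pair holding a line bred to drink much alcohol and one bred to drink little: P with NP, HAD1 with LAD1, HAD2 with LAD2, AA with ANA, and sP with sNP. There were 97 rats, 10 to a line but 9 in LAD1, in sP and in sNP. The labels give no sex, age, housing or alcohol exposure, and a line is 1 breeding population.

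Cyclic AMP and cyclic GMP are intracellular messengers that act through protein kinases A and G, cyclic nucleotide-gated channels and exchange factors. Adenylyl cyclases are driven or held back by G protein-coupled receptors. In the spiny projection neurons of the striatum the dopamine D1 receptor and the adenosine receptor Adora2a raise cAMP through Adcy5, and the dopamine D2 receptor lowers it. Nitric oxide raises cGMP there through soluble guanylyl cyclase, a dimer of an alpha and a beta subunit, and Pde10a, Pde1b and Pde2a are the phosphodiesterases best known from these neurons. All values below are log2 RMA signals, on which a difference of 1 is 2-fold, and all differences are preferring minus non-preferring line. The signal of a probe set depends on its probes, so levels are set against each other between lines but not between genes.

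Arrays of the series were not all alike. Spiny neuron markers were present on every array, with a mean over the 20 measured markers of 9.63 to 12.68. An index of these markers minus 7 markers of the neighbouring regions (pallidum, septum, basal forebrain) ran from 0.21 on the array P 5 to 5.15 in HAD2. On the genes that best part the lines of a pair, 8 arrays lay away from the line on their label, namely P 9, NP 9, HAD1 28, LAD1 37, AA 19, ANA 20, sP 4 and sNP 4. They are 1 array in each line of 4 pairs, and whether labels were exchanged between the lines of a pair was not tested. They kept their labels, and counts are given with and without these 8 departing arrays and without P 5. The departing arrays were chosen by a score of line difference, so larger counts without them are not independent support.

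Promoters of Pde10a, Adcy5 and Adcy9 are shown because Pde10a and Adcy5 moved together across animals (below), whereas Adcy9 was the gene with the widest difference in 2 line pairs. Each sequence is the 250 bases upstream of an annotated start in RefSeq on GRCr8, written 5′ to 3′ on the strand of the gene. Capitals mark the short form of the cAMP response element, TGACG or its complement CGTCA, which was searched on both strands.
Pde10a, start 1, chr1:54765669-54765918, minus strand: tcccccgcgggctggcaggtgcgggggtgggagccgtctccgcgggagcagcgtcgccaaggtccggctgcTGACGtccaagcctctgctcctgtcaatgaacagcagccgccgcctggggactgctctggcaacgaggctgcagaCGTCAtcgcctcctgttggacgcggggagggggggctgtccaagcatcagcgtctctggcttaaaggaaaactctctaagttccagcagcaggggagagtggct
Pde10a, start 2, chr1:54501207-54501456, minus strand: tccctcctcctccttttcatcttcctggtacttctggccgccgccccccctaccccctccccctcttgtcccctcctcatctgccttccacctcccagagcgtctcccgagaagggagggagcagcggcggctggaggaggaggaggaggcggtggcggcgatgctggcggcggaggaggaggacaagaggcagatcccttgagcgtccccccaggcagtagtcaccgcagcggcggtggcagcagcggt
Adcy5, chr11:79123344-79123593, minus strand: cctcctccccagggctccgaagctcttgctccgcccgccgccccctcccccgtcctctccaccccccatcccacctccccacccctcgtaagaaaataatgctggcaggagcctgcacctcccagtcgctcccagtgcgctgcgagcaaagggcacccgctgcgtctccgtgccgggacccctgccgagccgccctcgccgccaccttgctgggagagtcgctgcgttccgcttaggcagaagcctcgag
Adcy9, chr10:11645595-11645844, plus strand: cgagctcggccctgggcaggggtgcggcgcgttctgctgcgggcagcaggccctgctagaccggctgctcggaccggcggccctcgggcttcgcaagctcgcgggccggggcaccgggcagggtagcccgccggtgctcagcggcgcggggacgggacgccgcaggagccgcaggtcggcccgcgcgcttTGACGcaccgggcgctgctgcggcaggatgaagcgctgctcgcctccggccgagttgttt
The element occurred at 2 places before start 1 of Pde10a, at 1 place before Adcy9, and at 0 places before start 2 of Pde10a and before Adcy5. Of 33469 windows of this length in the table, 18.22% held it. Among the 28 genes of the family with an entry, 5 held it: Adcy9, Pde10a, Pde4a, Pde4d and Pde8a. A gene was counted if any of its windows held the element, so these counts are per gene and the percents per window. The full palindrome TGACGTCA stood in 1.59% of all windows and in 0 of the 28. A match is a run of letters and not a measured binding site.

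Levels of the enzymes best known from striatum were similar in the lines of most pairs. Adcy5 averaged 10.30 ± 1.07 in P and 10.48 ± 0.76 in NP, 10.18 ± 0.23 in HAD1 and 10.25 ± 0.27 in LAD1, and 9.95 ± 0.33 in HAD2 and 9.84 ± 0.40 in LAD2 (SD). It averaged 10.81 ± 0.52 in AA and 10.77 ± 0.47 in ANA, and 9.89 ± 0.72 in sP and 10.74 ± 0.36 in sNP. The widest difference was that of sP against sNP, and the animals of P spread over the widest range of the 10 lines, from 8.56 to 11.42. Pde10a averaged 12.14 ± 1.45 in P and 12.15 ± 1.01 in NP, 13.34 ± 0.26 in HAD1 and 13.38 ± 0.12 in LAD1, and 12.96 ± 0.24 in HAD2 and 12.78 ± 0.55 in LAD2. It averaged 13.03 ± 0.71 in AA and 12.97 ± 0.58 in ANA, and 11.49 ± 0.97 in sP and 12.52 ± 0.44 in sNP. Pde1b, a calmodulin-activated phosphodiesterase, averaged 12.95 ± 1.09 in P and 13.15 ± 0.72 in NP, 13.68 ± 0.17 in HAD1 and 13.79 ± 0.12 in LAD1, and 13.46 ± 0.14 in HAD2 and 13.36 ± 0.33 in LAD2. It averaged 13.50 ± 0.45 in AA and 13.48 ± 0.38 in ANA, and 12.74 ± 0.74 in sP and 13.51 ± 0.28 in sNP. The line with the higher mean was the same for all 3 genes in each pair, although limma called the difference only in sP/sNP (below).

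Few of the 41 genes differed between the lines outside sP/sNP. With all arrays limma called 0 of 41 in P against NP (background 1.05% of all probe sets) and 0 in HAD1 against LAD1 (1.2%). It called 1 in HAD2 against LAD2, Adcy9, which was higher (4.6%), and 0 in AA against ANA (2.35%). In sP against sNP it called 12, of which 5 were higher and 7 lower (12.9% in either direction, 7.08% higher and 5.83% lower). At an unadjusted p under 0.05 the counts were 2, 4, 4, 4 and 18 in this order of pairs. Of all 31042 probe sets, 2370, 3070, 4361, 3022 and 9410 had such a p in the same order. In no pair did a gene of the family have lines that did not overlap, against 0.0419%, 0.00966%, 0.918%, 0.158% and 0.49% of all probe sets in the same order. The median difference of the 41 genes was 0.01 in P/NP, -0.02 in HAD1/LAD1, 0.00 in HAD2/LAD2, -0.01 in AA/ANA and -0.04 in sP/sNP, and that of all probe sets lay between -0.01 and 0.00 in every pair. Bright probe sets were called more often in sP/sNP, and each gene stands by its brightest. When the test kept only probe sets above the median signal, 27.2% of them were called. In that fit 13 of the 22 genes kept were called, 4 higher and 9 lower.

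**Figure D1:**
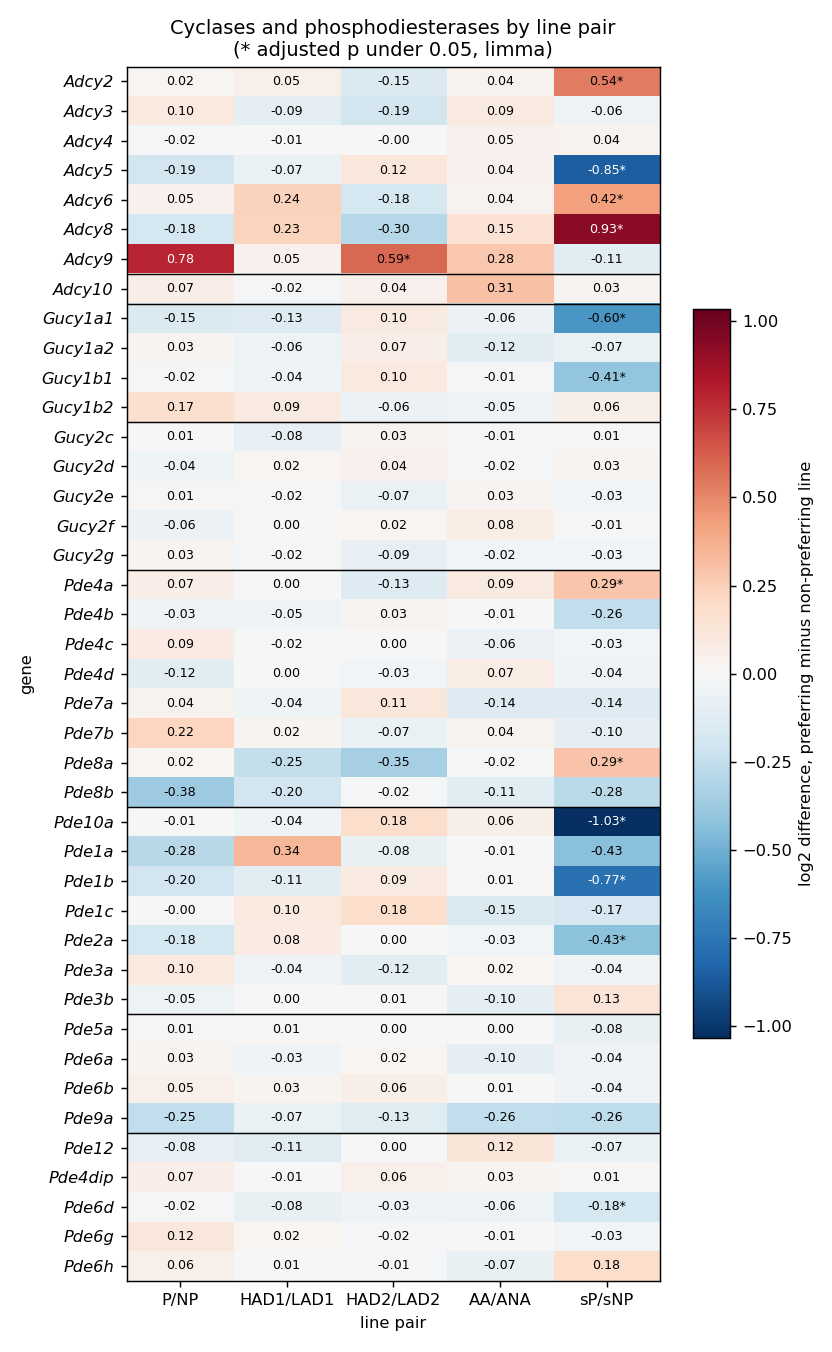
Differences of the 41 genes in each line pair, preferring minus non-preferring line, on the log2 scale (colour and printed value); rows are grouped by the role of the gene product, and an asterisk marks an adjusted p under 0.05 (limma, all arrays). The strong colours stand in the sP/sNP column, apart from Adcy9, which was higher by 0.78 in P and 0.59 in HAD2.

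Adcy9, a membrane adenylyl cyclase that forskolin activates only weakly, had the higher mean in the preferring line of 4 pairs. In HAD2 it ranged from 9.46 to 10.26 (median 9.62), against 8.55 to 9.58 in LAD2 (median 9.21). Of the 10 HAD2 animals 6 lay above the highest LAD2 animal, and the means of 9.72 ± 0.27 and 9.12 ± 0.39 (SD, n = 10 each) differ by 1.51-fold (0.59 ± 0.139 SE on the log2 scale, adjusted p = 0.0115). In P it ranged from 8.27 to 9.90 (median 9.17), against 7.78 to 9.24 in NP (median 8.32). The lowest P animal was the departing array P 9 and the highest NP animal the departing array NP 9. The difference of 0.78 ± 0.235 had an adjusted p of 0.142 with all arrays, and without these 2 arrays it was 0.98 ± 0.218, or 1.97-fold, with an adjusted p of 0.0181 (9 animals each; 661 of the 31042 probe sets were called). In the same fit 4 of 8 microglia markers were called lower in P (8 at an unadjusted p under 0.05, median -0.37), with array means of 9.62 to 10.05 in P and 9.90 to 10.39 in NP, and their part in the result was not tested. With all arrays 1 of these 8 was called lower and 7 had an unadjusted p under 0.05. In AA against ANA the log2 difference was 0.28 (adjusted p = 0.372), in HAD1 against LAD1 it was 0.05 (adjusted p = 0.958), and in sP against sNP it was -0.11 (adjusted p = 0.775).

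Averaged over the 5 pairs, Adcy9 was higher by 0.32 ± 0.0795 (adjusted p = 0.00716; background 3.37%). The average was called without the departing arrays too (0.37, adjusted p = 0.000907; background 4.94%), and without P 5 (0.33, adjusted p = 0.00413). With the spiny neuron index in the fit it was 0.39 (adjusted p = 1.2e-05). The 5 differences were not equal (interaction F = 4.35, adjusted p = 0.0296). With the 5 line pairs as the replicates, the 95% interval of the average ran from -0.01 to 0.65 (adjusted p = 0.948). Adcy9 has 1 probe set, so its differences have no check from other probes. In HAD2 against LAD2 cell type markers moved as well. Of 9 oligodendrocyte markers 5 were called lower, with array means of 10.69 to 11.01 in HAD2 and 10.90 to 11.56 in LAD2. Of 11 endothelial and mural markers 3 were called higher and 3 lower (8.66 to 9.05 in HAD2 and 8.69 to 8.90 in LAD2). Of 8 microglia markers 1 was called higher and 2 lower (9.71 to 10.14 in HAD2 and 9.75 to 10.23 in LAD2), and of 4 cholinergic interneuron markers 1 was called lower (8.92 to 9.60 in HAD2 and 9.21 to 9.70 in LAD2). The part of these markers in the Adcy9 result was not tested.

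**Figure D2:**
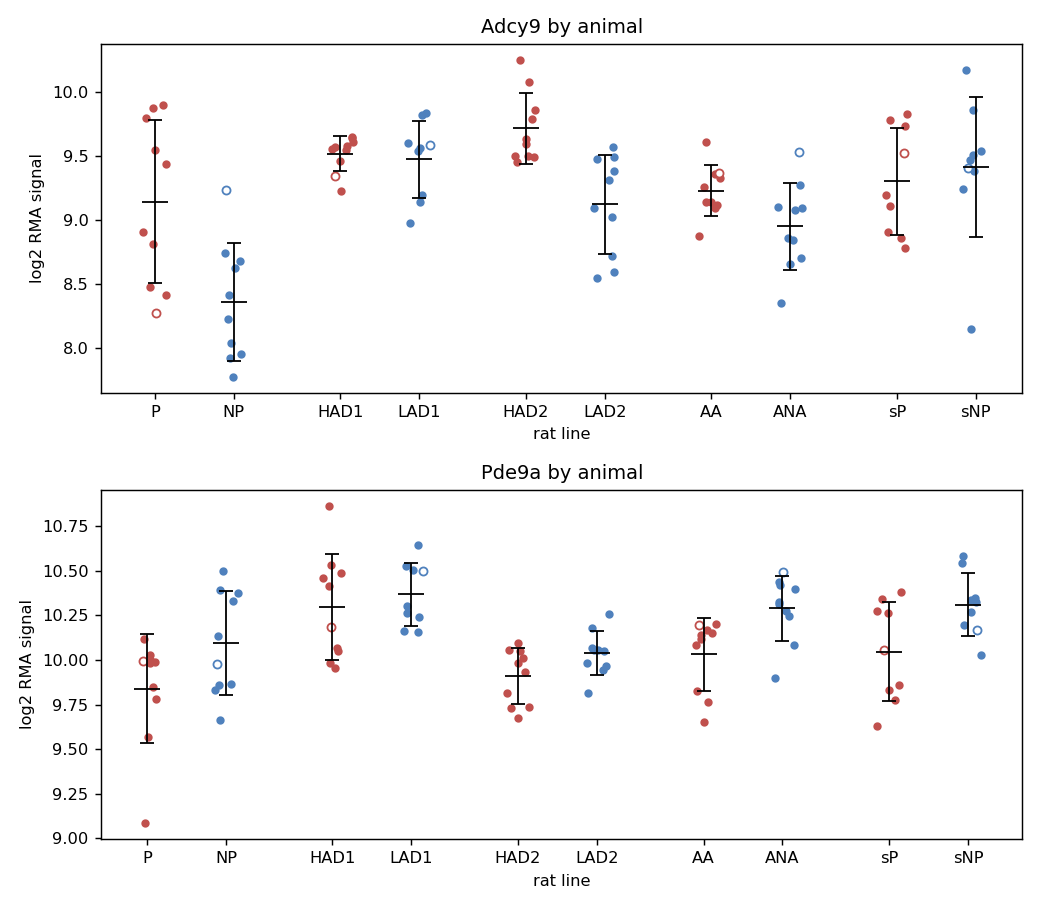
Log2 RMA signal of Adcy9 (top) and Pde9a (bottom) in every animal of the 10 lines, the preferring line (red) left of its partner (blue); bars give the mean and SD of the line, and open circles are the 8 departing arrays. Adcy9 averaged 9.72 in HAD2 and 9.12 in LAD2, and the lowest point for Pde9a, 9.09, is P 5.

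Pde9a, a phosphodiesterase with high affinity for cGMP, had the lower mean in the preferring line of all 5 pairs, by small amounts. The share of all probe sets with the same direction in all 5 pairs was not computed, so this agreement is only a description. In P it ranged from 9.09 to 10.12 (median 9.99), against 9.66 to 10.50 in NP (median 10.06). In AA it ranged from 9.65 to 10.20 (median 10.13), against 9.90 to 10.49 in ANA (median 10.32). The lines overlapped in both pairs, and 8 of the 10 ANA animals lay above the highest AA animal. In sP it ranged from 9.63 to 10.38 (median 10.05), against 10.03 to 10.58 in sNP (median 10.32). The log2 differences were -0.25 in P/NP, -0.07 in HAD1/LAD1, -0.13 in HAD2/LAD2, -0.26 in AA/ANA and -0.26 in sP/sNP, with 0 of 5 called (adjusted p from 0.0903 to 0.936).

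The average of the 5 Pde9a differences was -0.19 ± 0.046 on the log2 scale (adjusted p = 0.00391), and an inequality between pairs was not detected (F = 0.77, adjusted p = 0.794). The average was -0.20 without the departing arrays (adjusted p = 0.0055), -0.18 without P 5 (adjusted p = 0.00562) and -0.15 with the spiny neuron index in the fit (adjusted p = 0.00825). With the line pairs as replicates its 95% interval ran from -0.29 to -0.10, but the adjusted p was 0.948, and limma called 0 of 41 genes in that fit (0% of all probe sets). At an unadjusted p under 0.05 that fit had 2 of the 41, Pde9a (p = 0.0023) and Pde8b (p = 0.0102). Pde8b, a cAMP-specific phosphodiesterase, was lower on average in all 5 preferring lines (-0.20, adjusted p = 0.212 over animals), as was Pde6d (-0.07, adjusted p = 0.481). Here too no share of all probe sets was computed for such agreement. The average over animals called 2 of the 41, Adcy9 and Pde9a (background 3.37%), and 5 had an unadjusted p under 0.05. For neither of these 2 fits was the share of all probe sets at that unadjusted p counted.

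In sP against sNP rats, the genes of the family that are known from spiny neurons were lower. Pde10a ranged from 10.24 to 12.67 in sP (median 11.58), against 11.80 to 13.07 in sNP (median 12.74). In 5 of the 9 sP animals it lay below the lowest sNP animal, while the other 4 were within the range of sNP. The mean was 2.05-fold lower (-1.03 ± 0.324, adjusted p = 0.0433), and its dimmer probe set gave -1.15 (adjusted p = 0.0495). Adcy5, the main adenylyl cyclase of spiny neurons, ranged from 9.004 to 10.76 in sP (median 10.18), against 10.06 to 11.15 in sNP (median 10.89), and was 1.8-fold lower (-0.85 ± 0.244, adjusted p = 0.0348). Its other probe set, with a mean signal of 5.07, differed by -0.04. Pde1b ranged from 11.81 to 13.59 in sP (median 12.98), against 12.95 to 13.81 in sNP (median 13.61), and was 1.7-fold lower (-0.77 ± 0.24, adjusted p = 0.0426; -0.65 by its dimmer probe set, adjusted p = 0.0369).

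Both main subunits of soluble guanylyl cyclase, the receptor for nitric oxide, fell as well in sP. The alpha subunit Gucy1a1 ranged from 11.58 to 12.97 in sP (median 12.13), against 12.43 to 13.13 in sNP (median 12.92), and differed by -0.60 ± 0.183 (adjusted p = 0.0395; -0.64 by its dimmer probe set, adjusted p = 0.0719). With the mean of both probe sets its adjusted p was 0.0505. The beta subunit Gucy1b1 ranged from 11.91 to 12.70 in sP (median 12.17), against 12.35 to 12.90 in sNP (median 12.71), and differed by -0.41 ± 0.102 (adjusted p = 0.0224; -0.41 by its dimmer probe set, adjusted p = 0.0257). The 2 genes are neighbours on chromosome 2 in the current annotation. Gucy1a2 (-0.07) and Gucy1b2 (0.06) were not called. Pde2a, a dual phosphodiesterase that cGMP stimulates, was lower by 0.43 on the log2 scale in sP (-0.43 ± 0.128, adjusted p = 0.0383). Pde6d, a chaperone for prenylated proteins rather than a hydrolase, differed by -0.18 ± 0.0472 (adjusted p = 0.0285). Without the departing arrays Pde4b, a cAMP-specific phosphodiesterase of the rolipram-sensitive group, was called lower too (-0.29 ± 0.0940, adjusted p = 0.0481; -0.26 with all arrays, adjusted p = 0.0537), which makes 13 calls (background 15%).

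Other cyclases rose in sP against sNP. Adcy8, a cyclase that calcium and calmodulin stimulate, ranged from 7.69 to 9.21 in sP (median 8.66), against 6.62 to 8.54 in sNP (median 7.90), and was 1.91-fold higher (0.93 ± 0.285, adjusted p = 0.0397). Adcy2, which G protein beta-gamma subunits stimulate, ranged from 11.57 to 12.41 in sP (median 11.95), against a median of 11.48 and a highest value of 11.96 in sNP, and was 1.45-fold higher (0.54 ± 0.146, adjusted p = 0.0303). Adcy6, the closest relative of Adcy5 and like it inhibited by calcium, was higher by 0.42 ± 0.121 (adjusted p = 0.0346), against a difference of 0.03 by its dimmer probe set. With the mean of both probe sets Adcy6 was not called. The 2 cAMP-specific phosphodiesterases Pde4a and Pde8a each rose by 0.29 (adjusted p = 0.032 and 0.0333). The dimmer probe set of Pde8a differed by 0.19 (adjusted p = 0.244), and the mean of both had an adjusted p of 0.0512. In a fit over all lines with a shared spread 4 of the 12 calls were lost, those of Adcy8 (adjusted p = 0.186), Pde6d (0.278), Pde8a (0.131) and Pde2a (0.065). By the brightest probe sets in the fit of this pair, 3 of the 7 membrane adenylyl cyclases were called higher and 1 lower. Of those 3, only Adcy2 was also called both with the mean of probe sets and with the shared spread. Of the 7 dual-specificity phosphodiesterases 3 were called lower and 0 higher by the brightest probe sets.

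**Figure D3:**
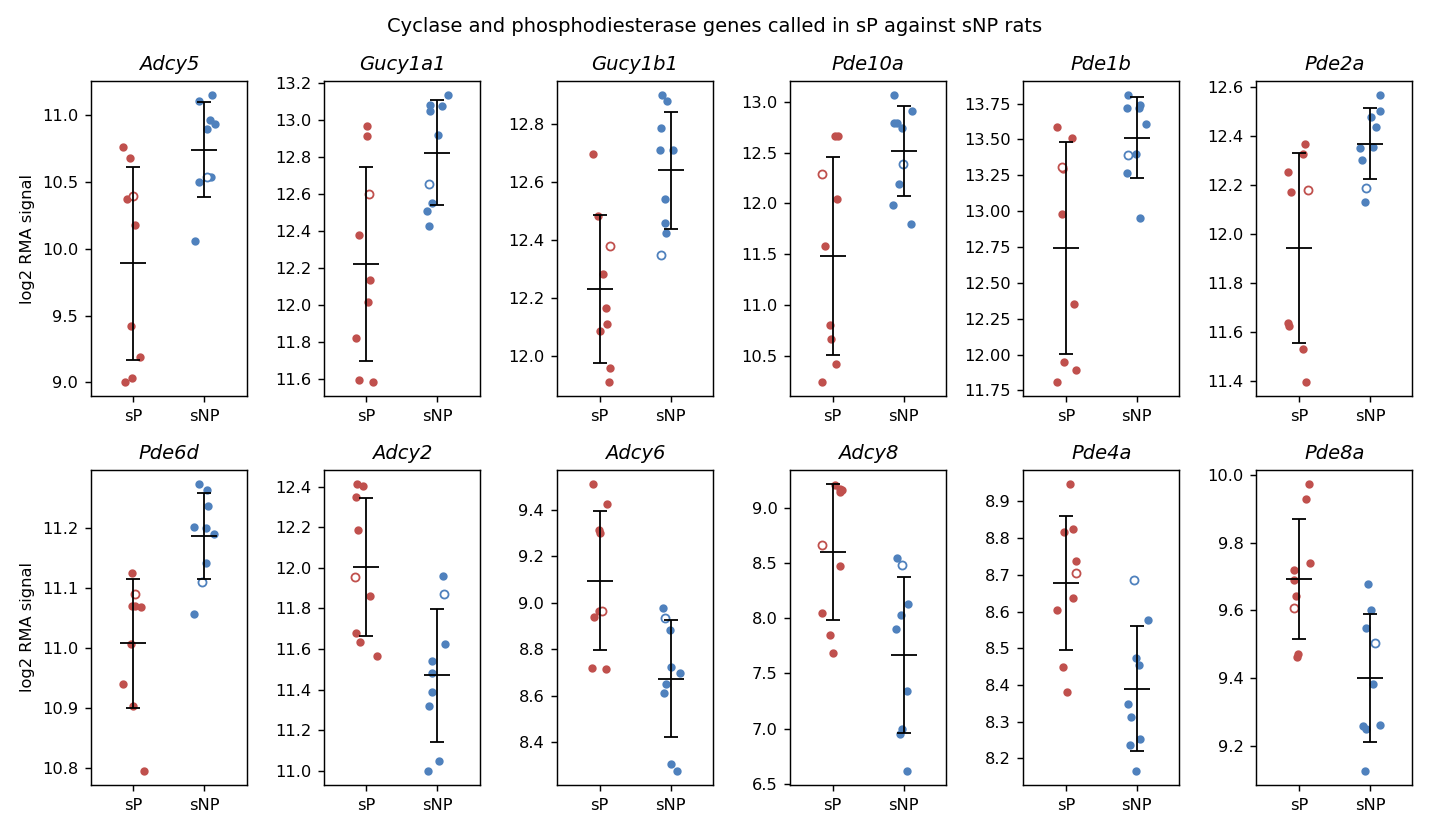
Log2 RMA signal of the 12 genes called between sP (red, left) and sNP (blue, right), 1 point per animal, with the mean and SD of each line (n = 9 each); open circles are the departing arrays sP 4 and sNP 4, and each panel has its own axis, which does not start at 0. The first 7 panels are the genes lower in sP and the last 5 those higher, and the lines overlap in every panel.

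Cell type markers moved with these 12 genes. Of the 20 spiny neuron markers 15 were called lower in sP (median -0.79), with array means of 10.24 to 11.90 in sP and 11.38 to 12.12 in sNP, and of the 7 markers of neighbouring regions 1 was called higher (median 0.25), with array means of 8.25 to 8.85 in sP and 7.81 to 8.60 in sNP. Of 4 cholinergic interneuron markers 0 were called, but 4 had an unadjusted p under 0.05 (median 0.46), with array means of 8.50 to 9.70 in sP and 8.28 to 8.89 in sNP. Calls were also made for 2 of 8 astrocyte markers, both higher (12.19 to 12.38 in sP and 12.13 to 12.33 in sNP), for 1 of 9 oligodendrocyte markers, which was higher (11.81 to 12.26 in sP and 11.65 to 12.08 in sNP), and for 3 of 11 endothelial and mural markers, 1 higher and 2 lower (9.06 to 9.33 in sP and 9.05 to 9.30 in sNP). Of 5 cortical neuron markers 1 was called lower (6.73 to 7.06 in sP and 6.85 to 7.18 in sNP), and of 8 microglia markers 0 were called and 0 had an unadjusted p under 0.05. The spiny neuron index lay between 1.52 and 3.65 in sP (median 2.96) and between 2.88 and 4.29 in sNP (median 3.61). With this index as a covariate limma called 0 of 41 genes (background 0.96%, 1 at an unadjusted p under 0.05), and the difference was -0.02 ± 0.107 for Adcy5 and 0.07 ± 0.143 for Pde10a. In tissue RNA, fewer spiny neurons, a larger share of neighbouring tissue and less of these transcripts per neuron cannot be told apart. The difference between the Gapdh 3' and 5' probe sets, which reflects RNA integrity and labelling, lay between 0.31 and 0.48 in sP and between 0.32 and 0.80 in sNP. With it as a covariate 0 of 41 were called (background 2.78%, 17 at an unadjusted p under 0.05), with -0.76 for Adcy5 and -0.85 for Pde10a. With either covariate the share of all probe sets at that unadjusted p was not counted.

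The same coupling was present in deviations from the line means, pooled over the lines. After subtraction of each line's mean, 24 of the 41 genes correlated with the spiny neuron index over the 97 arrays, 16 positively and 8 negatively (permutation within lines, adjusted over the 41). The share of all genes that correlate with the index was not computed, so this count is not a trait of the family. The permutation p of Pearson's r and of Spearman's rho was 1e-05 for each gene named in this paragraph, the smallest that 100000 permutations can give, and the adjusted values were 2.2e-05 and 2.4e-05. Pde1b followed the index most closely (r = 0.97, rho = 0.951; r = 0.964 without P 5 and P 9, the 2 arrays farthest from the middle). Within pairs its r was 0.988 in P/NP, 0.707 in HAD1/LAD1, 0.914 in HAD2/LAD2, 0.963 in AA/ANA and 0.958 in sP/sNP. Next came Pde10a (r = 0.952, rho = 0.922), Adcy5 (0.942 and 0.907), Pde2a (0.937 and 0.906), Gucy1a1 (0.926 and 0.917), Pde4b (0.876 and 0.85) and Gucy1b1 (0.861 and 0.835). Without P 5 and P 9 the r of these 6 genes lay between 0.861 and 0.946. Within HAD1/LAD1, where the index ran only from 4.25 to 5.07, their r lay between 0.227 and 0.848, and in the other 4 pairs it was at least 0.696. No gene of the family is part of the index, but all values of an array share its dissection, RNA and labelling.

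The 8 genes with a negative correlation were led by Adcy8 (r = -0.86, rho = -0.892), Adcy2 (-0.841 and -0.864), Adcy6 (-0.825 and -0.814) and Pde8a (-0.811 and -0.776). Pde4a followed (-0.539 and -0.486), and these 5 were the genes called higher in sP. The other 3, which were not called in sP/sNP, were Pde4d (-0.398 and -0.399), Gucy1b2 (-0.381 and -0.32) and Pde3b (-0.346 and -0.399), with adjusted p of at most 0.0047. Pde8a followed the index in 4 pairs (r from -0.924 to -0.761) but not in HAD1/LAD1 (r = 0.049). Adcy9 was of intermediate strength (r = 0.571, rho = 0.569), and its r was -0.456 in HAD1/LAD1 against 0.425 to 0.688 in the other pairs. Pde1a, a relative of Pde1b, had an r of -0.068 (adjusted p = 0.66). Among the genes themselves the within-line r was 0.972 between Pde10a and Pde1b, 0.947 between Adcy5 and Pde10a, 0.9 between Gucy1a1 and Gucy1b1, and -0.849 between Adcy2 and Pde4b, given as a description of arrays that share these sources of spread.

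**Figure D4:**
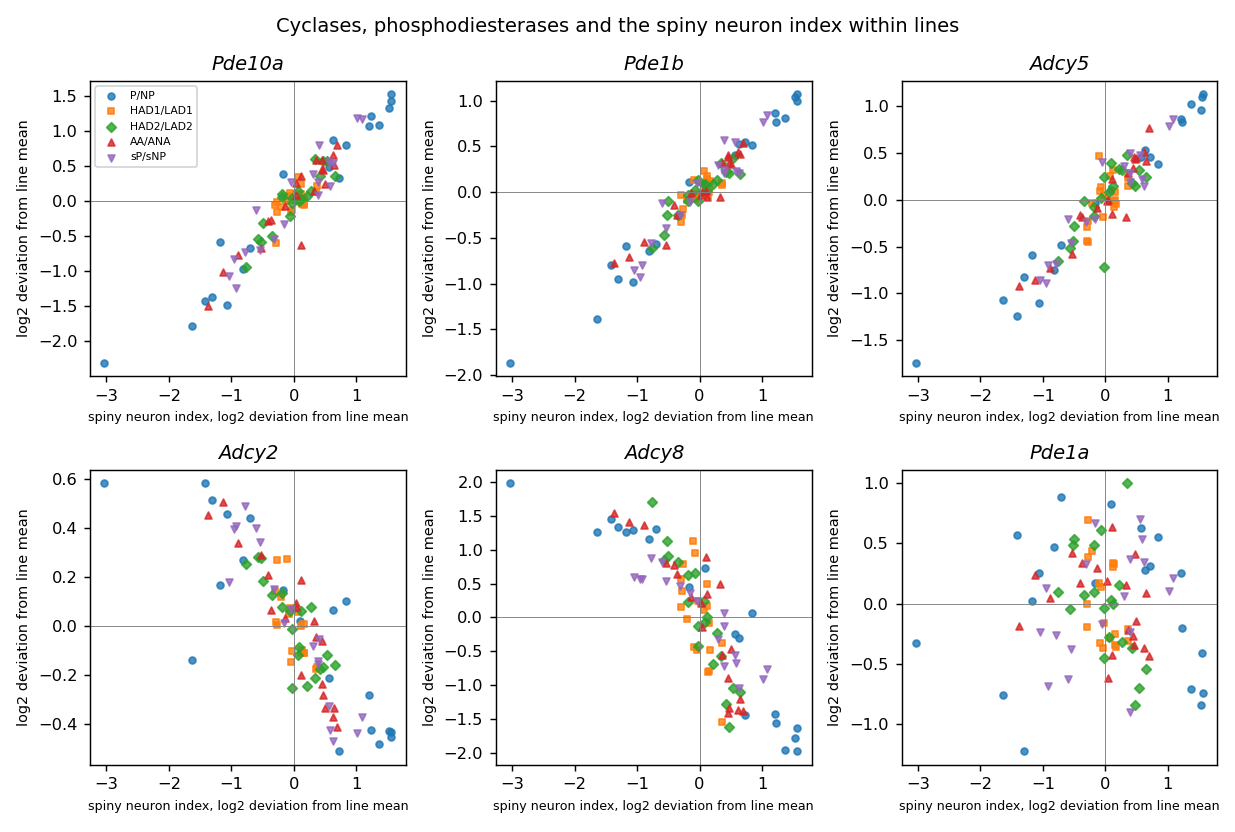
Log2 signal of 6 genes against the spiny neuron index, both as deviations from the mean of the animal's line, with 1 point for each of the 97 arrays and a symbol for each line pair. Pde10a, Pde1b and Adcy5 run upwards (r = 0.952, 0.97 and 0.942), Adcy2 and Adcy8 run downwards (r = -0.841 and -0.86), and Pde1a shows no slope (r = -0.068); P 5 is the point at the far left.

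For some genes the differences were unequal between the pairs. Their count was near the share of all probe sets, so it is not a trait of the family. Limma found unequal differences for 3 of the 41, against 11.7% of all probe sets (8 of the 41 at an unadjusted p under 0.05): Adcy9, Pde8a and Adcy2. The share of all probe sets at that unadjusted p was not counted. Pde8a, a cAMP-specific phosphodiesterase with high affinity, had log2 differences of -0.25 in HAD1/LAD1 and -0.35 in HAD2/LAD2, of 0.02 in P/NP and -0.02 in AA/ANA, and of 0.29 in sP/sNP (F = 3.93, adjusted p = 0.0476). In HAD1 it ranged from 9.19 to 9.47 (median 9.30), against 9.17 to 9.87 in LAD1 (median 9.58). Without HAD1 28 and LAD1 37 it was called lower in HAD1 (-0.31 ± 0.0646, adjusted p = 0.00605; background 3.98%), and with all arrays it was not (adjusted p = 0.119). In HAD2 against LAD2 its adjusted p was 0.0797. Adcy2 had differences of 0.02, 0.05, -0.15 and 0.04 in the other pairs and 0.54 in sP/sNP (F = 3.89, adjusted p = 0.04995). Without the departing arrays 5 genes had unequal differences (background 17.5%), Gucy1b1 and Pde4a besides these 3.

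Adcy10, the soluble cyclase that bicarbonate activates, was the gene with the smallest adjusted p in AA against ANA. It ranged from 5.48 to 6.11 in AA, with a mean of 5.81 ± 0.19, against a mean of 5.50 ± 0.21 in ANA (SD, n = 10 each). The difference of 0.31 ± 0.0856 had an adjusted p of 0.0663, and without AA 19 and ANA 20 it was called (0.31 ± 0.0811, adjusted p = 0.0272; background 4.44%). Its signal is below that of the median probe set in every line.

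The remaining genes were not called in any pair with all arrays or without the departing arrays. Under other settings Adcy3, a membrane adenylyl cyclase, was called lower in HAD2 than in LAD2 with the spiny neuron index in the fit (-0.26 ± 0.0538, adjusted p = 0.00425, background 5.6%). Pde7a was called lower in sP when the test kept only probe sets above the median signal (-0.14 ± 0.0482, adjusted p = 0.0444, background 27.2%). None of the 5 receptor guanylyl cyclases (Gucy2c, Gucy2d, Gucy2e, Gucy2f and Gucy2g), known from gut, retina and olfactory neurons, was called, and their differences lay between -0.09 and 0.08 over all pairs. The retinal phosphodiesterase subunits Pde6a and Pde6b and their inhibitory subunits Pde6g and Pde6h were not called either, nor was Pde5a, the target of sildenafil. Of the cAMP-specific group, Pde4c, Pde4d, Pde7a, Pde7b and Pde8b had 0 calls in these pairs, with differences from -0.38 for Pde8b in P/NP to 0.22 for Pde7b in P/NP. Of the dual-specificity group, Pde1a, Pde1c, Pde3a and Pde3b had 0 calls in these pairs, the widest being Pde1a with 0.34 in HAD1/LAD1 (adjusted p = 0.408) and -0.43 in sP/sNP (adjusted p = 0.168). Adcy3, Adcy4, Gucy1a2, Gucy1b2, Pde12 and Pde4dip complete the set.

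Between line pairs, by contrast, several genes stood far apart. Pde1a had a mean of 6.07 in HAD1/LAD1 and 7.001 in HAD2/LAD2, against 9.39 in P/NP, 9.93 in AA/ANA and 10.05 in sP/sNP, a range of 3.99. Gucy2e ran the other way, with 8.10 in HAD1/LAD1 and 8.18 in HAD2/LAD2 against 5.79 in P/NP, 6.13 in AA/ANA and 5.87 in sP/sNP, as did Gucy2g (range 2.03) and Pde5a (range 1.44). Within pairs the lines differed by at most 0.43 for Pde1a and by at most 0.09 for Gucy2e, Gucy2g and Pde5a. The Gapdh 3' minus 5' difference also parted the same pairs, with 4.19 to 5.38 in HAD1/LAD1 and 2.3 to 3.6 in HAD2/LAD2 against -0.06 to 0.80 in the other pairs. RNA quality, labelling and line pair cannot be told apart in these levels.

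**Figure D5:**
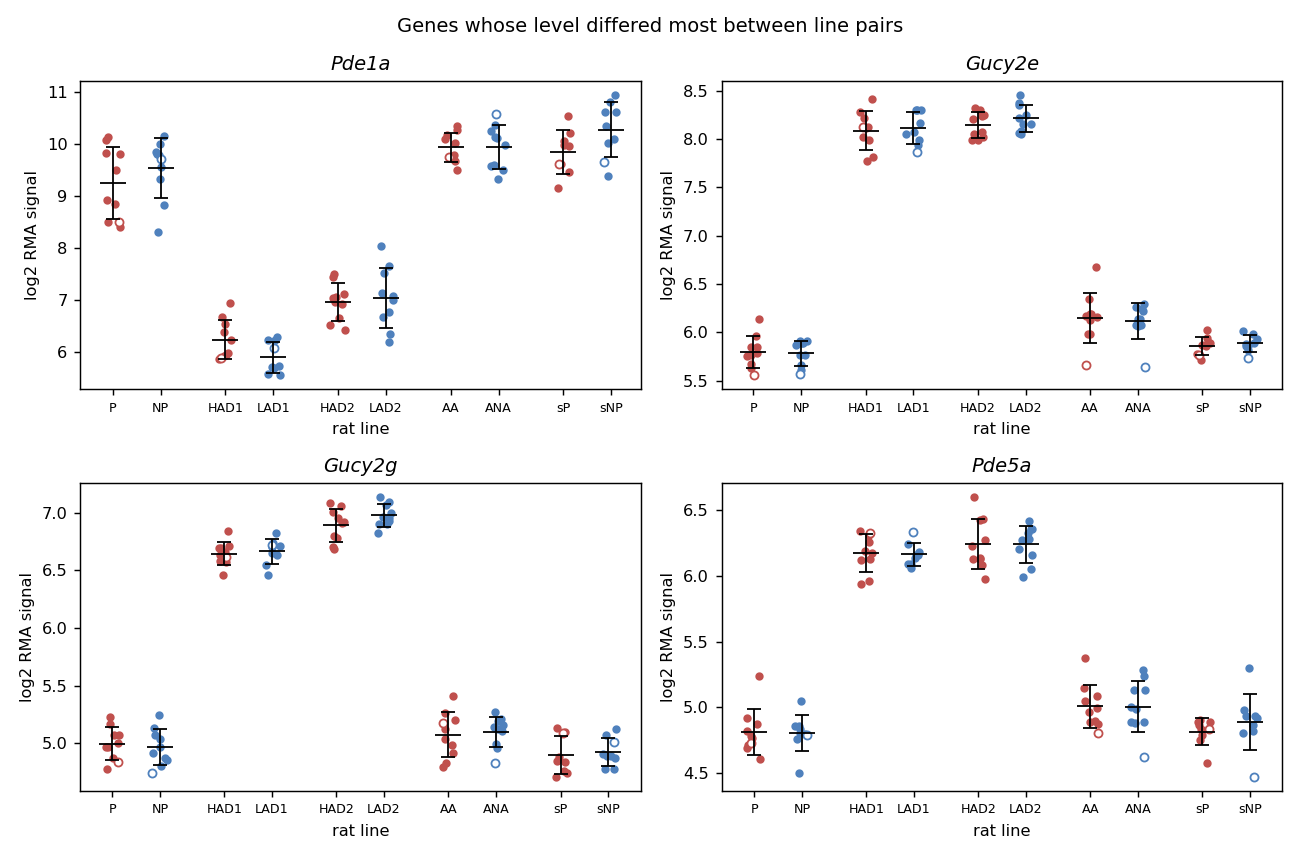
Log2 RMA signal of Pde1a, Gucy2e, Gucy2g and Pde5a in every animal, the preferring line (red) left of its partner (blue), with the mean and SD of each line; open circles are the 8 departing arrays. Pde1a is low in the 4 HAD and LAD lines and the other 3 genes are high there, while the lines of a pair lie together.

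Partners of these enzymes were followed in a list of 67 genes for G proteins, kinases, anchors, channels, receptors and sources of nitric oxide, of which 61 were measured. With all arrays limma called 0 of 61 in P/NP, 1 in HAD1/LAD1, 2 in HAD2/LAD2, 2 in AA/ANA and 16 in sP/sNP (5 higher, 11 lower), beside the backgrounds given above, and the 0 in P/NP stands beside 3 at an unadjusted p under 0.05. Akap5, an anchor that holds protein kinase A at synapses, was lower in HAD1 than in LAD1 (-1.10, adjusted p = 0.0117) and higher in HAD2 than in LAD2 (1.02, adjusted p = 0.00267). The endothelial nitric oxide synthase Nos3 was lower in HAD2 (-0.64, adjusted p = 0.00088). In AA the lower genes were Creb1, which encodes a transcription factor that protein kinase A phosphorylates (-0.79, adjusted p = 0.000166), and Abcc4, a transporter that exports cyclic nucleotides (-0.44, adjusted p = 0.00836).

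In sP the 4 list genes with the smallest adjusted p were the protein kinase inhibitor Pkig (-0.43, adjusted p = 0.022), the striatal G protein subunit Gnal, which couples the dopamine D1 receptor to Adcy5 (-0.51, adjusted p = 0.0307), the phosphatase regulator Arpp19 (-0.88, adjusted p = 0.0319) and the natriuretic peptide receptor Npr1, itself a guanylyl cyclase (0.38, adjusted p = 0.0319). The list shares 6 genes with the spiny neuron markers (Gnal, Ppp1r1b, Drd1, Drd2, Adora2a and Arpp21), all of them called lower in sP. The median difference of the 61 was -0.01 in sP/sNP. Leaving out the departing arrays gave 2 calls in HAD1/LAD1 (background 3.98%), 2 in AA/ANA (4.44%) and 19 in sP/sNP (15%).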

How the data were processed

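RNA from the nucleus accumbens shell of 97 rats was measured on 97 arrays. Per the submitters' processing notes, the authors summarised the signals with RMA, whose version is not stated in the labels. The deposited log2 signals, 1 per probe set, were taken as they stand, without rescaling. Values ran from 3.56 to 16.06, and array medians lay between 7.82 and 8.02. Per the labels' protocols, the input was 25 ng of total RNA, amplified in 2 cycles. Of 31099 probe sets, 57 controls were left out and 31042 were tested, of which 20826 carried 1 symbol, 436 several and 9780 none.

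Each pair had its own limma 3.58.1 fit of preferring against non-preferring animals (R 4.3.3, lmFit and eBayes, two-sided, no trend). P-values were adjusted over the 31042 probe sets by the method of Benjamini and Hochberg, and calls are those with an adjusted p under 0.05. A limma model of all 10 lines yielded the average of the 5 differences and the F test of whether they were equal. In another, the 5 pair differences themselves served as replicates. Each gene stands by its brightest probe set over all arrays. Text names every gene called in any of these fits, with all arrays or without the 8 departing arrays, together with Adcy5, Adcy9, Pde10a and Pde1b. Of the wider list of the pathway, all calls are counted and up to 4 with the smallest adjusted p are named per comparison. The fits were tested on simulated data.

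The genes, the lists and the tests were chosen with earlier results of these data known. Only P with NP and sP with sNP reuse animal numbers. Same-numbered arrays of P/NP had deviations from their line means that correlated between -0.591 and 0.774, so these numbers were not taken as pairs. Alternatives were the mean of a gene's probe sets, another prior, a filter on dim probe sets, renewed quantile normalisation, covariates, a shared spread, a replicate block, and arrays left out. Promoter sequences are those of RefSeq on GRCr8. Pde11a was not analysed here because its 3 probe sets carry several symbols.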

Additional observations from a re-analysis of the deposited data

Results flagged for a closer look

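For Adcy9 and Pde9a in all 10 lines, and for every other gene called in a pair (with or without the departing arrays) in the lines of that pair, each line was checked for an animal far from the rest. Of these 50 sets of animals 2 had one, and chance alone gives about 1 in 20. The lowest sNP animal for Adcy9 (8.15, sNP 2) lay far below the next (9.25), and the sP/sNP difference was -0.11 with this animal included. The lowest P animal for Pde9a (9.09, P 5) lay far below the next (9.57). P 5 is also the array with the lowest spiny neuron index of the series (0.21), and without it the average Pde9a difference was -0.18 (adjusted p = 0.00562).

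The differences between the lines were unequal over the 5 pairs for 3 genes, by the interaction F in limma. For Adcy9 F was 4.35, with differences of 0.78 in P/NP and 0.59 in HAD2/LAD2 beside -0.11 in sP/sNP. For Pde8a F was 3.93, with -0.35 in HAD2/LAD2 beside 0.29 in sP/sNP. For Adcy2 F was 3.89, with 0.54 in sP/sNP beside -0.15 in HAD2/LAD2.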

How the results depend on the processing

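Counts of called genes of the family held within 1.5 times under most alternatives. Shares in parentheses are those of all probe sets called in the same fit. In P/NP the count of 0 became 1 without the departing arrays, with the spiny neuron index as covariate (2.95%) and with a spread shared over all lines (2.45%), each time Adcy9. In HAD1/LAD1 the 0 became 1 without the departing arrays (3.98%), Pde8a. In HAD2/LAD2 the 1 became 3 with the spiny neuron index (5.6%), Adcy9 with Adcy3 and Pde8a lower, and 2 with the Gapdh 3' minus 5' difference (5.58%), Adcy9 and Pde8a, which is near the share of all probe sets. In AA/ANA the 0 became 1, Adcy10, under renewed quantile normalisation (2.46%), without the departing arrays (4.44%), with the spiny neuron index (3.22%) or the Gapdh difference (3.14%) and with a shared spread (3.35%). In sP/sNP the 12 became 0 with either covariate, and the signs of small remainders turned with the spiny neuron index: -0.00536 for Adcy8, 0.0712 for Pde10a, 0.05889 for Pde1b, 0.00658 for Pde2a and 0.03128 for Pde4b. The count of unequal differences, 3, became 1 under renewed quantile normalisation (11.9%) and 5 without the departing arrays (17.5%). Leaving out P 5, chosen after seeing the data, gave 0 in P/NP (0.918%), 2 for the average (3.06%) and 4 for unequal differences (12.9%). The same setting gave 0 with line pairs as replicates (0%) and 24 correlations, for which no share of all genes was computed. Over 19 results for single genes, 165 alternatives kept direction and side of the threshold in 120, brought a gene past the threshold in 13, lost the call in 27, and turned the sign in 5.

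Shared animal numbers were not taken as pairs. Same-numbered correlations lay between -0.591 and 0.774 in P/NP and between -0.22 and 0.56 in sP/sNP. The best match was the same number for 1, 2, 4 and 7 in P/NP and for 3 and 8 in sP/sNP, and another number for the rest. Whether same-numbered arrays were processed together was not tested. With the replicate block 0 genes were called in P/NP (0.635%) and 15 in sP/sNP (16.2%), the 12 with Pde1a, Pde1c and Pde9a, all 3 lower. With 9 or 10 arrays per line, differences well under the spread between animals were not detectable.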
